A study of Mus musculus with 6 samples.

Results

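The genes described here belong to the programs of megakaryocytes, the cells that shed platelets, and of red cells, for which blood progenitors can be primed. A list of 43 such genes was looked up among deposited microarray rows that name exactly 1 gene. Of these, 40 were found among 19938 genes, 17 of 20 on the megakaryocyte side and all 23 on the erythroid side. No gene had more than 1 such row. Gp1ba, Gp6 and Selp are not analysed here. Gata1, Zfpm1 and Nfe2 act in both lineages and were counted on the erythroid side.

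Early blood progenitors transcribe genes of several lineages at a low level before they commit, which is called priming. Megakaryocytes and red cells share a bipotent progenitor. GATA1 drives both programs together with its partner FOG1, encoded by Zfpm1, while the ETS factor FLI1 favours the megakaryocyte and KLF1 the red cell side. Platelet genes such as Vwf and Itga2b are also transcribed in a platelet-primed part of the stem cell pool, many cells of which carry the surface protein CD150.

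The cells were LSK CD150- cells of mouse bone marrow, that is, cells without markers of mature lineages, with Sca-1 and Kit, and without CD150. The deleted group consisted of 3 Cebpa fl/fl;Mx1Cre mice and the control group of 3 Cebpa fl/fl mice, with 1 Affymetrix Mouse Gene 1.0 ST array per mouse (n = 3 each). In all 6 mice loxP sites flanked Cebpa, and all received pIpC, a double-stranded RNA, and cells were taken at day 18. The Mx1 promoter is switched on by interferon in many cell types, so the deletion is not restricted to the sorted cells. Controls lacked Cre, so Cre itself and loss of Cebpa cannot be told apart. Cebpa encodes C/EBPα, which drives progenitors towards granulocytes and monocytes, and the comparison asks how early progenitors differ once it is deleted. No age is given in the sources used here.

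Cebpa itself read 6.37, 5.82 and 6.09 on the log2 scale in deleted mice, against 7.84, 7.85 and 7.73 in control mice (log2 fold change -1.71 ± 0.14 SE, limma adjusted p = 0.000883). Permuting the genotypes exactly gave a two-sided p of 0.1, the lowest possible with 3 mice a side. Whether that row's probes fall in the deleted stretch was not checked here. Of the gate's defining genes, Kit read at or above the 92.9th percentile of all genes on all 6 arrays and Slamf1, which encodes CD150, at or below the 15.4th. Ly6a, which encodes Sca-1, is not analysed here. The labels call the mice female, whereas Kdm5d and Eif2s3y, both Y-linked, had values of 8.04 to 8.49 and Xist of 4.46 to 5.13 on all 6 arrays, against that label. Pearson's r between arrays across genes, which are not independent replicates, was 0.987 to 0.989 among deleted mice, 0.989 to 0.990 among controls and 0.979 to 0.986 between the genotypes.

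Most members gave a moderate signal in these cells, and few were bright. A gene was called bright when it reached the array's own 75th percentile over all genes on all 6 arrays, and dim when it lay below the array's own median on all 6. On the megakaryocyte side 3 of 17 genes were bright, 10 intermediate and 4 dim. On the erythroid side 3 of 23 were bright, 14 intermediate and 6 dim. Of all genes 20.5% were bright and 44.1% dim, so bright members were not more frequent than bright genes at large. An array value also depends on how well its probes bind, so these classes describe signal and give no order of transcript number between genes.

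The bright megakaryocyte genes were Plek, which encodes pleckstrin, a substrate of protein kinase C in platelets, Fli1 and F2r, which encodes the thrombin receptor PAR1. Plek lay between the 95.4th and 96.8th percentile, Fli1 from the 91.4th percentile upward, and F2r between the 78.8th and 87.5th. None of these is restricted to platelets: pleckstrin and FLI1 are made by many blood cells. The genes best known as platelet markers were intermediate or dim. The intermediate genes were Slc14a1, Pf4, Gp9, F2rl2, Itga2b, Gp5, Cd9, Treml1, Vwf and Tubb1, with means over all mice of 6.28 to 7.75. Vwf, the von Willebrand factor gene, lay between the 47.1st and 50.7th percentile on all arrays. The dim genes were Thbs1, Rab27b, Itgb3 and Ppbp, with means of 5.47 to 6.16.

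Among erythroid genes the bright ones were Nfe2, a subunit of the transcription factor NF-E2 (96.2nd to 97.4th percentile), Car2, a carbonic anhydrase (92.9th to 96.4th), and Apoe, which encodes a lipid carrier (86.3rd to 91.7th). Tfrc, Cnrip1, Zfpm1, Car1, Icam4, Blvrb, Gata1, Slc4a1, Ermap, Mfsd2b, Epor, Aqp1, Alas2 and Sphk1 were intermediate, with means of 6.36 to 7.77. The dim genes were Ank1, Tspo2, Klf1, Rhd, Trim10 and Rhag, with means of 3.85 to 6.05. Klf1, the red cell regulator, read between 5.58 and 6.12. Rhag, which encodes a membrane glycoprotein of the Rh complex, read between 3.67 and 4.01, at or below the 5.26th percentile. At the 90th percentile, 4 members were still bright, namely Plek, Fli1, Nfe2 and Car2.

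**Figure D1:**
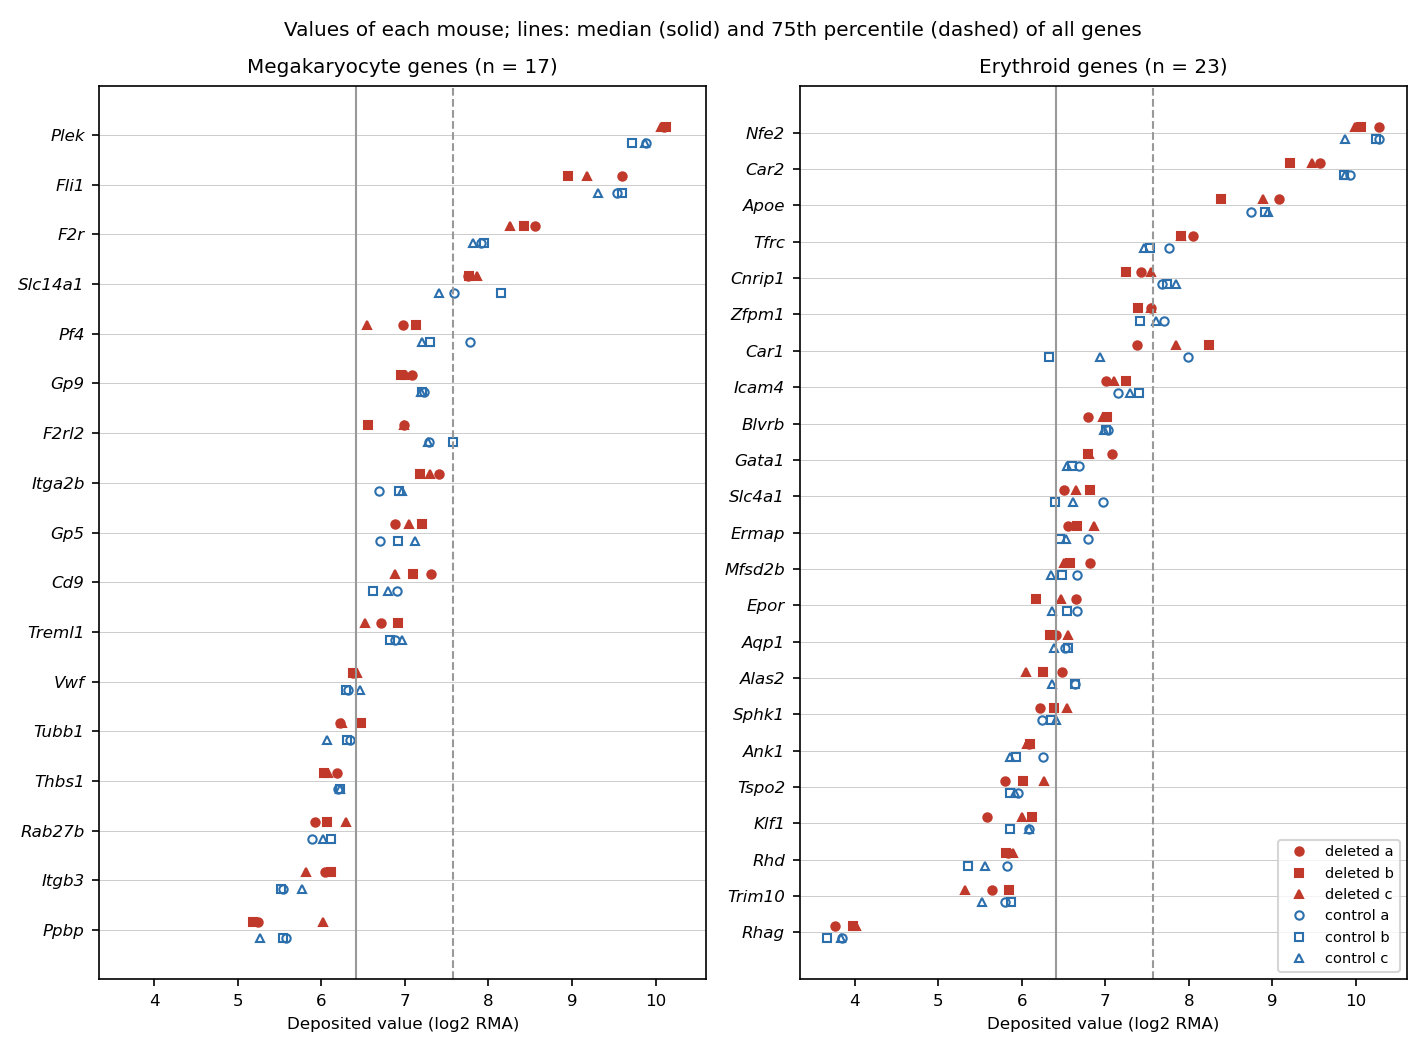
Deposited log2 values of each mouse for the 17 megakaryocyte genes (left) and 23 erythroid genes (right), in order of their mean, with filled red symbols for deleted and open blue symbols for control mice. Grey lines mark the median (solid) and the 75th percentile (dashed) of all genes, averaged over the arrays, and 3 genes on each side lie beyond the dashed line in all 6 mice.

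No member passed the test between genotypes. Of 40 members, 0 were called by limma at an adjusted p under 0.05, against 1.43% of all genes (286 of 19938). In the direction of higher and lower calls the shares of all genes were 0.702% and 0.732%. The lowest adjusted p was 0.0571 on the megakaryocyte side, for F2r, and 0.0896 on the erythroid side, for Car2. At an unadjusted p under 0.05 there were 11 members (27.5%, against 15.9% of all genes), 7 higher (9.1% of all genes) and 4 lower (6.77%) in deleted mice. Of these, 7 of 17 were on the megakaryocyte side and 4 of 23 on the erythroid side. Each array read the pooled cells of a mouse, so fewer cells that express a gene and less RNA per cell cannot be told apart.

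The mice of the genotypes did not overlap for 12 of 40 members (30.0%), against 21.2% of all genes. On the megakaryocyte side deleted mice lay above controls for 4 of 17 genes, F2r, Itga2b, Itgb3 and Plek, and below them for another 4, F2rl2, Pf4, Gp9 and Thbs1. On the erythroid side they lay above for 2 of 23, Tfrc and Gata1, and below for 2, Car2 and Cnrip1. Over all genes, deleted mice lay above for 12.5% and below for 8.68%.

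The sizes were small. The 95% interval of the log2 fold change stayed within 1 in either direction for 39 of 40 members, with Car1 the exception, and within 0.5 for 25 of 40. The median log2 fold change was 0.075 over the megakaryocyte genes and -0.021 over the erythroid genes, against 0.029 over all genes. The median size regardless of sign was 0.20 for megakaryocyte genes, 0.12 for erythroid genes and 0.12 for all genes. Both medians lay too near 0 to have a stable sign. The erythroid median was positive without deleted a (0.050), without deleted b (0.040), under quantile normalization (0.0085) and under median centring (0.027), and the megakaryocyte median was negative without control c (-0.012). Over all genes the median was 0.054 under quantile normalization and 0.077 under median centring.

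**Figure D2:**
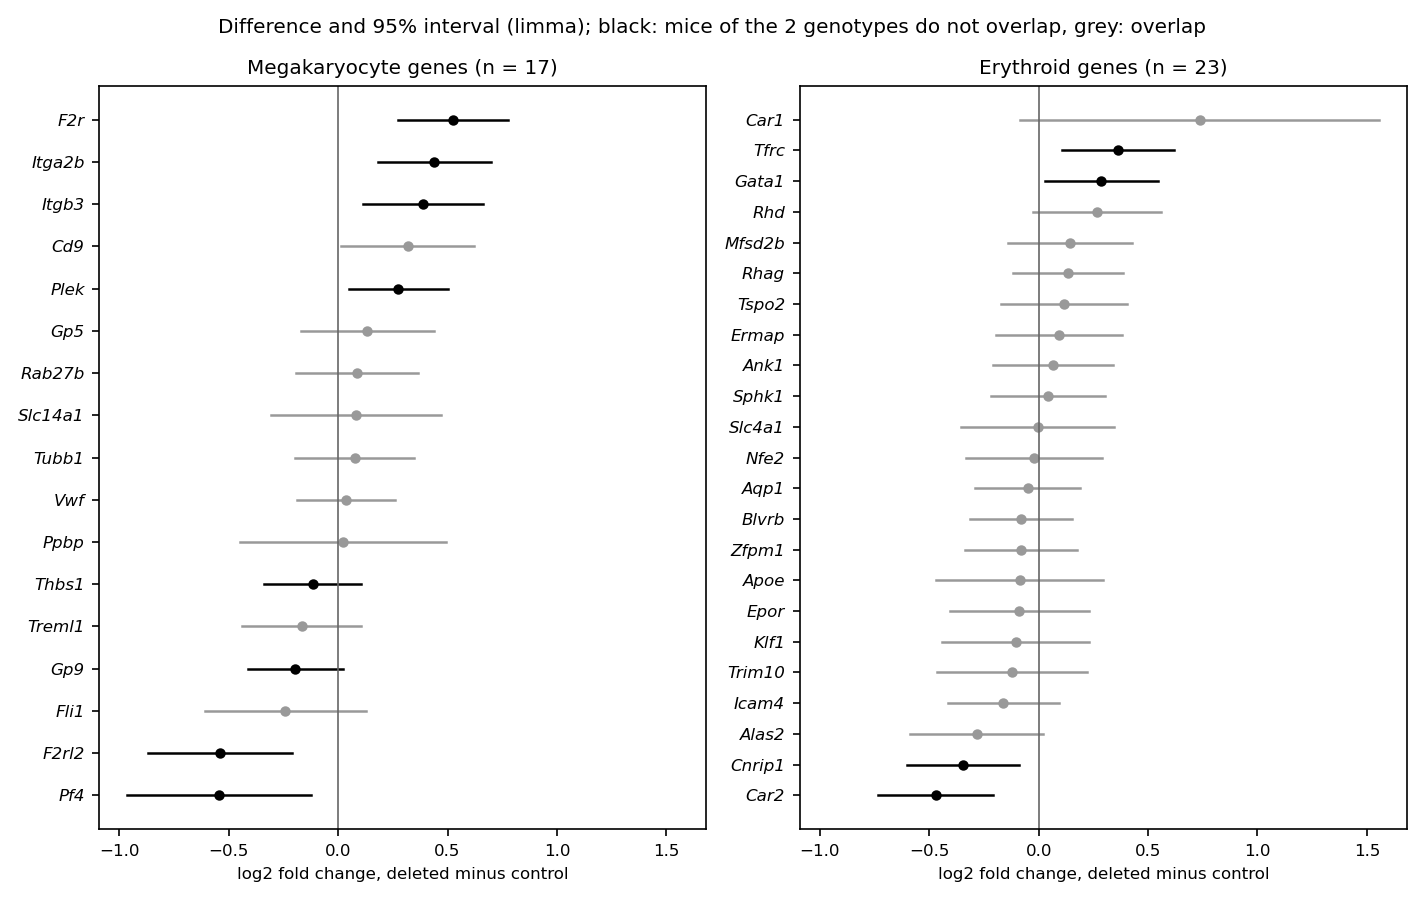
Log2 fold change, deleted minus control, with its 95% interval from limma for each megakaryocyte gene (left) and erythroid gene (right), in order of size. Black marks the 12 genes whose mice do not overlap between the genotypes and grey the other 28, and the interval of Car1 is the only one that reaches beyond 1.

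**Figure D3:**
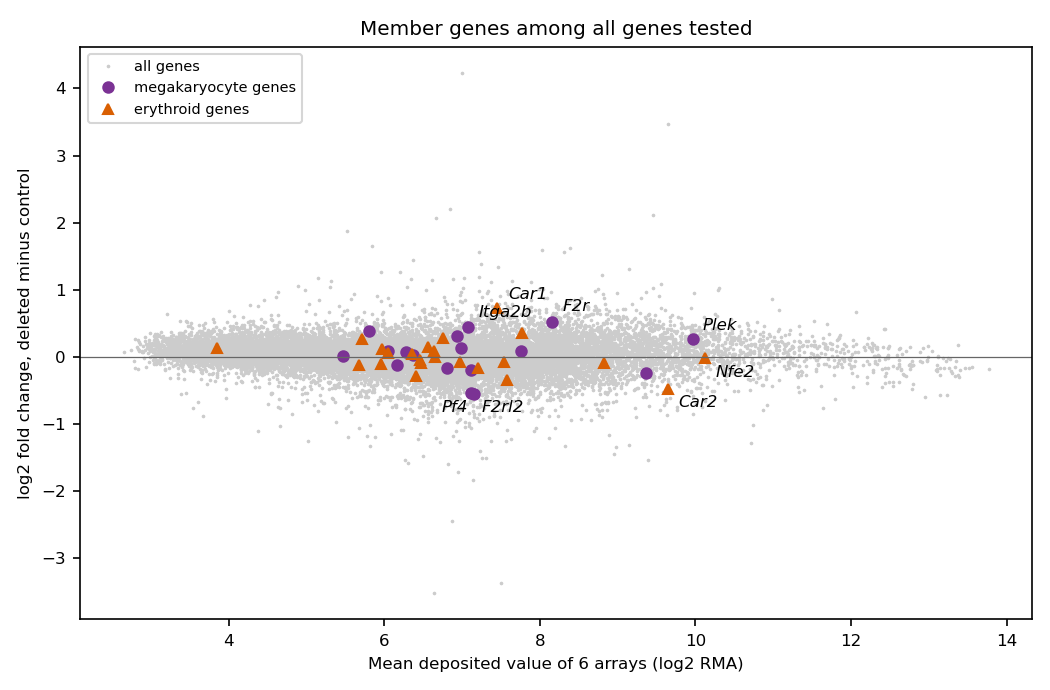
Mean deposited value over the 6 arrays (log2 RMA, horizontal) against log2 fold change, deleted minus control (vertical), for all 19938 genes in grey, megakaryocyte genes as purple circles and erythroid genes as orange triangles. The members lie within the cloud of all genes, between -0.54 (Pf4) and 0.74 (Car1).

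The stretches around the gene starts are shown for members with the smallest p on each side and for the brightest megakaryocyte gene, as far as the RefSeq table of build GRCm38.p6 holds them. It holds 29 of the 40 members. Car2, with the smallest p on the erythroid side, and Nfe2, the brightest erythroid gene, are not among them. Each runs from 250 bases before to 50 after the start, 5′ to 3′ on the gene's strand. Capitals mark GATAA, the core of sites for GATA factors, and GGAAG, a core of sites for ETS factors such as FLI1, on either strand. The positions are chr13:95618417-95618716 (minus strand) for F2r, chr11:102469834-102470133 (minus) for Itga2b, chr11:17008669-17008968 (minus) for Plek and chr16:32608646-32608945 (plus) for Tfrc. Tfrc has 2 windows in the table, and the one farther upstream is given.
F2r: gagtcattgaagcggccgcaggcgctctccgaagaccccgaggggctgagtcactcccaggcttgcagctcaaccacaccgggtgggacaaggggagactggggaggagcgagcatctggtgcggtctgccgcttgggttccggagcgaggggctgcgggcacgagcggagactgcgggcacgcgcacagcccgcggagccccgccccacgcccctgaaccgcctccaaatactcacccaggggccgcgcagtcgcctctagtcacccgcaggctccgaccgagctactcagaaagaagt
Itga2b: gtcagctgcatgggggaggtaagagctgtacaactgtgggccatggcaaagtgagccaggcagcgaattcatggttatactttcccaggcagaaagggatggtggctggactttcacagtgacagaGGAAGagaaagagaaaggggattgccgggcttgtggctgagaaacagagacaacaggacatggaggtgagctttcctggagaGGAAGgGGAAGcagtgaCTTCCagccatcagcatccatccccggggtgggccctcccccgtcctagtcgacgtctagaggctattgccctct
Plek: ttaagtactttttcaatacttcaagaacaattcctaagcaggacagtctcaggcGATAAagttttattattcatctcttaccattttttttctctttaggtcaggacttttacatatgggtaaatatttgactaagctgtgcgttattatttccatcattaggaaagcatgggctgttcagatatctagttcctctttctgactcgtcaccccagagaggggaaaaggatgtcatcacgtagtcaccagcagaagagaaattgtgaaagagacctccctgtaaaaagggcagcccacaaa
Tfrc: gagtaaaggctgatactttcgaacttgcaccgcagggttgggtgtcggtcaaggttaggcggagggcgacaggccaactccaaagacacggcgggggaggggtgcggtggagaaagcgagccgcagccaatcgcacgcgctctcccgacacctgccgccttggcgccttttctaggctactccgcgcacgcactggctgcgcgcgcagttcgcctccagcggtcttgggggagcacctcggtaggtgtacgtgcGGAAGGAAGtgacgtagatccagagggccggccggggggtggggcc

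The Itga2b window held 4 matches to GGAAG and none to GATAA. Plek held 1 GATAA and no GGAAG, Tfrc held 2 GGAAG that share a base run and no GATAA, and F2r held neither. Over members with a window, GATAA was found in 5 of 11 megakaryocyte genes (45.5%) and 8 of 18 erythroid genes (44.4%), against 25.8% of 27025 promoters. GGAAG was found in 9 of 11 and 12 of 18, against 71.1% of all. CCNCNCCC, a CACCC box of the kind KLF1 binds, was found in 7 of 11 and 13 of 18, against 49.2%, and the E-box CANNTG in 9 of 11 and 11 of 18, against 72.1%. TTGCNNAA, the form bound by C/EBP factors, was found in 2 of 11 and 0 of 18, against 10.7%. Both strands were searched and matches may overlap. A match describes these letters only and is not a bound site.

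The genes of a pair of protease-activated receptors lay on opposite sides of their controls, and neither passed. PAR1, encoded by F2r, is the thrombin receptor of human platelets, whereas mouse platelets lack it and use PAR3 and PAR4. F2r, whose window above held neither motif, read 8.56, 8.43 and 8.26 in deleted mice, against 7.91, 7.95 and 7.82 in control mice. All deleted mice lay above all controls, by at least 0.31. The log2 fold change was 0.52 ± 0.11 (SE, 1.44-fold), with a limma adjusted p of 0.0571. The call was thus missed narrowly, and it was made under 4 alternatives: with the dimmest genes removed up to the 25th percentile of mean intensity (adjusted p = 0.0453, 2.34% of genes called) or the median (0.0380, 4.39%), after quantile normalization (0.0361, 1.69%) and after median centring (0.0423, 1.76%). No member was called with an intensity trend (1.62% of genes called), cyclic loess (1.48%), the mean of a gene's rows (1.48%), the letters of the titles as a replicate block (1.37%) or every deposited row tested (0.0366%). None was called either without deleted a, b or c (0.727%, 0.421% and 0.717% of genes) or without control a, b or c (0.632%, 0.266% and 1.25%).

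F2rl2 encodes PAR3, a thrombin-binding receptor that on mouse platelets presents thrombin to its partner PAR4. It read 6.99, 6.55 and 6.99 in deleted mice, against 7.29, 7.58 and 7.28 in control mice. Here all deleted mice lay below all controls. The log2 fold change was -0.54 ± 0.15 (SE), and it did not pass (limma adjusted p = 0.113). F2rl3, which encodes PAR4 and is not a member, stood at 0.09 on the log2 scale (adjusted p = 0.813).

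Integrin αIIbβ3 is the fibrinogen receptor of platelets. Its α subunit gene Itga2b, which encodes CD41, read 7.41, 7.18 and 7.30 in deleted mice, against 6.69, 6.92 and 6.96 in control mice. Its β subunit gene Itgb3 read 6.04, 6.12 and 5.82 in deleted mice, against 5.54, 5.52 and 5.77 in control mice. For both genes the deleted mice lay above the controls. The log2 fold changes were 0.44 ± 0.12 (SE) for Itga2b and 0.39 ± 0.12 (SE) for Itgb3, and neither passed (limma adjusted p = 0.104 and 0.161). Itgb3 was dim on all arrays, so background may enter its value.

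**Figure D4:**
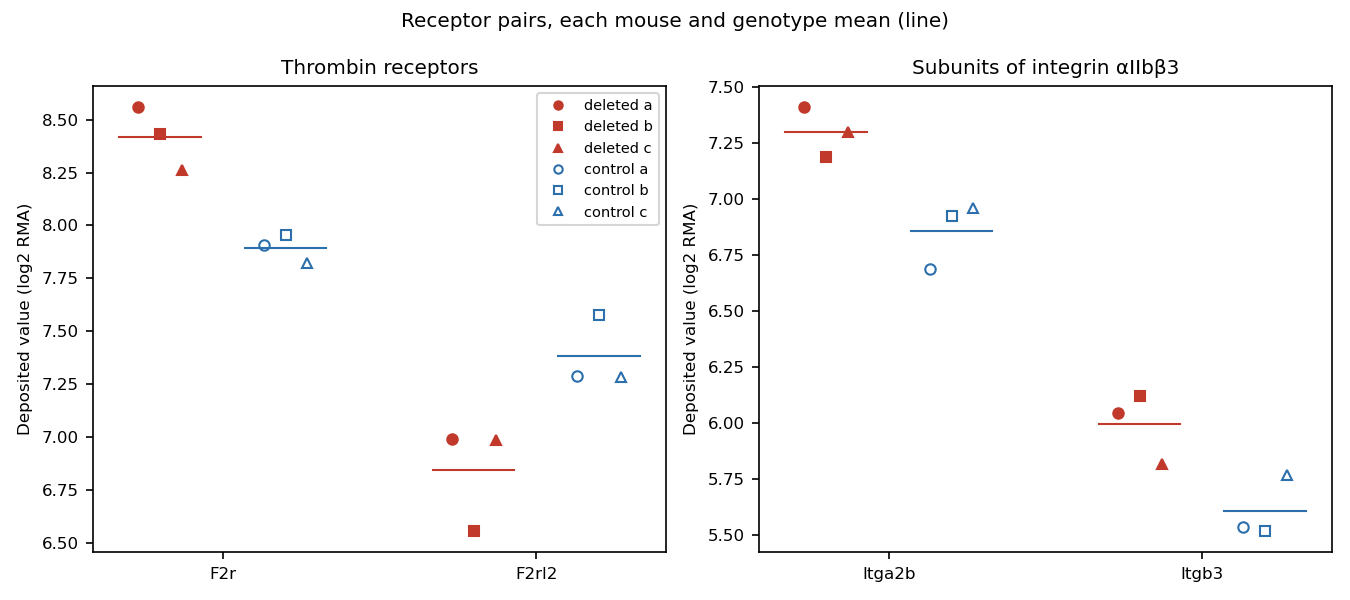
Deposited log2 values of each mouse for the protease-activated receptor genes F2r and F2rl2 (left) and the integrin subunit genes Itga2b and Itgb3 (right), deleted mice in red at the left of each pair and controls in blue, with the genotype mean as a line. Deleted mice lie above controls for F2r, Itga2b and Itgb3 and below them for F2rl2, and the vertical axes do not start at 0.

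The glycoprotein Ib-IX-V complex binds von Willebrand factor to platelets. Gp9 read 7.08, 6.95 and 7.01 in deleted mice, against 7.23, 7.20 and 7.20 in control mice, a log2 difference of -0.20 ± 0.10 (SE, limma adjusted p = 0.371). The mice did not overlap, but the gap between the genotypes was 0.11. Gp5 overlapped, with a log2 difference of 0.13 ± 0.14 (SE, adjusted p = 0.695). Cd9, a tetraspanin of platelets and many other cells, read 7.31, 7.09 and 6.88 in deleted mice, against 6.91, 6.61 and 6.80 in control mice. Deleted c fell short of control a, and the difference of 0.32 ± 0.14 (SE, log2) did not pass (adjusted p = 0.289). Without deleted a it was 0.21.

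Genes of the α granules, which store proteins that platelets release, had values on both sides of the controls, and none passed. Pf4, which encodes the chemokine platelet factor 4, read 6.98, 7.14 and 6.54 in deleted mice, against 7.79, 7.30 and 7.21 in control mice. The deleted mice lay below the controls by at least 0.07, and the difference of -0.54 ± 0.19 (SE, log2) did not pass (limma adjusted p = 0.196). Without control a it was -0.37. The other α granule genes had log2 fold changes of 0.04 (Vwf), 0.02 (Ppbp, a chemokine gene), -0.12 (Thbs1, thrombospondin) and -0.17 (Treml1, a receptor kept in the granule membrane). Thbs1 separated the genotypes by only 0.01. Ppbp, a neighbour of Pf4 in the chemokine family, varied within deleted mice, at 5.24, 5.18 and 6.03.

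Plek read 10.10, 10.13 and 10.07 in deleted mice, against 9.88, 9.71 and 9.87 in control mice. Deleted mice lay above controls, and their SD was 0.03. The difference of 0.28 ± 0.10 (SE, log2) did not pass (limma adjusted p = 0.217). Fli1 read 9.60, 8.96 and 9.18 in deleted mice, against 9.54, 9.60 and 9.31 in control mice, and overlapped (-0.24 ± 0.16 SE, adjusted p = 0.532). Without deleted a the difference was -0.42 and without deleted b -0.096, and it did not pass in either case. Rab27b, a small GTPase of granule transport, Tubb1, the platelet β-tubulin, and Slc14a1, a urea transporter, had log2 fold changes of 0.08 to 0.09 and overlapped. Of the megakaryocyte genes, Slc14a1 varied most among controls, at 7.58, 8.14 and 7.41, against 7.75, 7.76 and 7.87 in deleted mice.

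On the erythroid side the 4 regulators of transcription did not pass. Gata1 read 7.08, 6.80 and 6.80 in deleted mice, against 6.69, 6.60 and 6.54 in control mice. All deleted mice lay above all controls, and the log2 fold change was 0.29 ± 0.12 (SE, limma adjusted p = 0.265). Nfe2 read 10.27, 10.06 and 9.99 in deleted mice, against 10.28, 10.24 and 9.86 in control mice, and overlapped (-0.02 ± 0.14 SE, adjusted p = 0.959). Klf1 (-0.11 ± 0.15 SE) and Zfpm1 (-0.08 ± 0.11 SE) overlapped as well.

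The receptors of erythropoietin and of transferrin differed in pattern. Tfrc, which takes up transferrin-bound iron in all dividing cells and most of all in red cell precursors, read 8.05, 7.90 and 7.90 in deleted mice, against 7.76, 7.54 and 7.47 in control mice. Deleted mice lay above controls, with a log2 fold change of 0.36 ± 0.11 (SE), which did not pass (limma adjusted p = 0.161). Epor, the erythropoietin receptor, overlapped, with a log2 fold change of -0.09 ± 0.14 (SE).

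Car2 had the smallest p on the erythroid side. It read 9.56, 9.21 and 9.48 in deleted mice, against 9.93, 9.86 and 9.87 in control mice. Deleted mice lay below controls, and the log2 fold change of -0.47 ± 0.12 (SE, 1.39-fold) did not pass (limma adjusted p = 0.0896, between 0.0580 and 0.221 under the alternatives). Cnrip1, which encodes a protein that binds the cannabinoid receptor CB1, read 7.42, 7.25 and 7.55 in deleted mice, against 7.68, 7.74 and 7.85 in control mice. It too lay below controls in all deleted mice (-0.34 ± 0.11 SE, adjusted p = 0.181).

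The 9 members of the red cell membrane and of haem overlapped between the genotypes with all mice included. Without control a, Ermap, Ank1, Rhd and Icam4 separated, as did 31.2% of all genes. Leaving out other mice separated genes of this group too. These were Rhag and Alas2 without deleted a (35.4% of all genes), and Rhd, Blvrb and Icam4 without deleted b (30.7%). Alas2 also separated without control c (32.1%). The 7 membrane genes Slc4a1, which encodes the anion exchanger band 3, Ank1, the ankyrin that anchors it, Rhag, Rhd, Ermap, Icam4 and the water channel gene Aqp1 had log2 fold changes of -0.16 (Icam4) to 0.27 (Rhd). Alas2, the first enzyme of haem synthesis in red cells, had a log2 difference of -0.28 ± 0.14 (SE, limma adjusted p = 0.356), and Blvrb, a biliverdin reductase, -0.08 ± 0.10 (SE). Mfsd2b, which exports sphingosine 1-phosphate from red cells, and Sphk1, a kinase that makes it, were at 0.14 and 0.04. Tspo2, a transporter protein of red cell precursors, and Trim10, a RING protein of the red cell lineage, were at 0.12 and -0.12. Apoe read 9.08, 8.38 and 8.89 in deleted mice, against 8.74, 8.91 and 8.95 in control mice (-0.09 ± 0.17 SE).

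Car1, the abundant carbonic anhydrase of red cells, had the largest control SD of the 40 members. It read 7.38, 8.24 and 7.84 in deleted mice, against 7.99, 6.33 and 6.93 in control mice. Control a lay among the deleted mice, and the SD was 0.43 in deleted and 0.84 in control mice. The difference of 0.74 ± 0.37 (SE, log2) did not pass (limma adjusted p = 0.374). Without control a it was 1.19 ± 0.26 (SE, adjusted p = 0.0907), and without control b it was 0.36 (adjusted p = 0.738). Car1 is described here because of this spread, a choice made after its values were seen.

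Rows for adult globin, the protein part of haemoglobin, showed the same mouse apart. Each such row names several globin genes and cannot be given to 1 of them. The first α-globin row read 10.27, 10.25 and 10.06 in deleted mice, against 10.74, 8.17 and 8.60 in control mice. The first β-globin row read 11.37, 11.15 and 11.27 in deleted mice, against 12.25, 10.30 and 9.93 in control mice. Control a was thus the highest of all 6 mice, and controls b and c the lowest, in the 4 rows. The control SD was 1.24 to 1.39, and that of deleted mice 0.11 to 0.13. In the fit over all 35556 rows the log2 fold changes were 0.42 to 1.03 and did not pass (limma adjusted p = 0.529 to 0.792), and without control a they were 1.15 to 1.82 and did not pass either (0.156 to 0.195).

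Control a was also often the highest control over the erythroid members. It held the highest of the 3 control values for 16 of 23 erythroid genes (69.6%), against 34.4% of all genes and 6 of 17 megakaryocyte genes. The 7 genes for which it did not were Aqp1, Cnrip1, Apoe, Alas2, Sphk1, Trim10 and Icam4. Over the erythroid genes control a exceeded the mean of the other controls by a median of 0.12, against -0.02 over the megakaryocyte genes. Slc4a1, for example, read 6.50, 6.82 and 6.65 in deleted mice, against 6.97, 6.39 and 6.61 in control mice. For other genes of the 16 the margin was slight. Klf1 read 6.082 in control a and 6.08 in control c, and Rhag 3.85 and 3.838. Whether mature red cells or their RNA contributed to these values was not tested. Of 10 marker genes of mature red cells only Epb42 is named by a row of its own, and it read 4.89 to 5.08 over all 6 mice.

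Without control a, deleted mice lay above the 2 other controls for 7 of 23 erythroid genes and below them for 3, against 18.0% and 13.2% of all genes. With all mice these counts were 2 and 2. Control a was singled out after its values were seen, because it was often the highest control over these erythroid genes. Leaving it out therefore favours counts above in this list more than over all genes. The shares of all genes are thus no like comparison, and nothing is concluded from the rise. No erythroid gene passed either way, and the erythroid median log2 fold change without control a was -0.0018. On the megakaryocyte side 9 of 17 genes separated without control a, against 8 with it. The share of all genes that separated was 31.2% without control a, against 21.2% with all mice, since fewer mice overlap less. Leaving out any other mouse left 4 to 7 erythroid genes separated, at 28.6% to 35.4% of all genes.

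**Figure D5:**
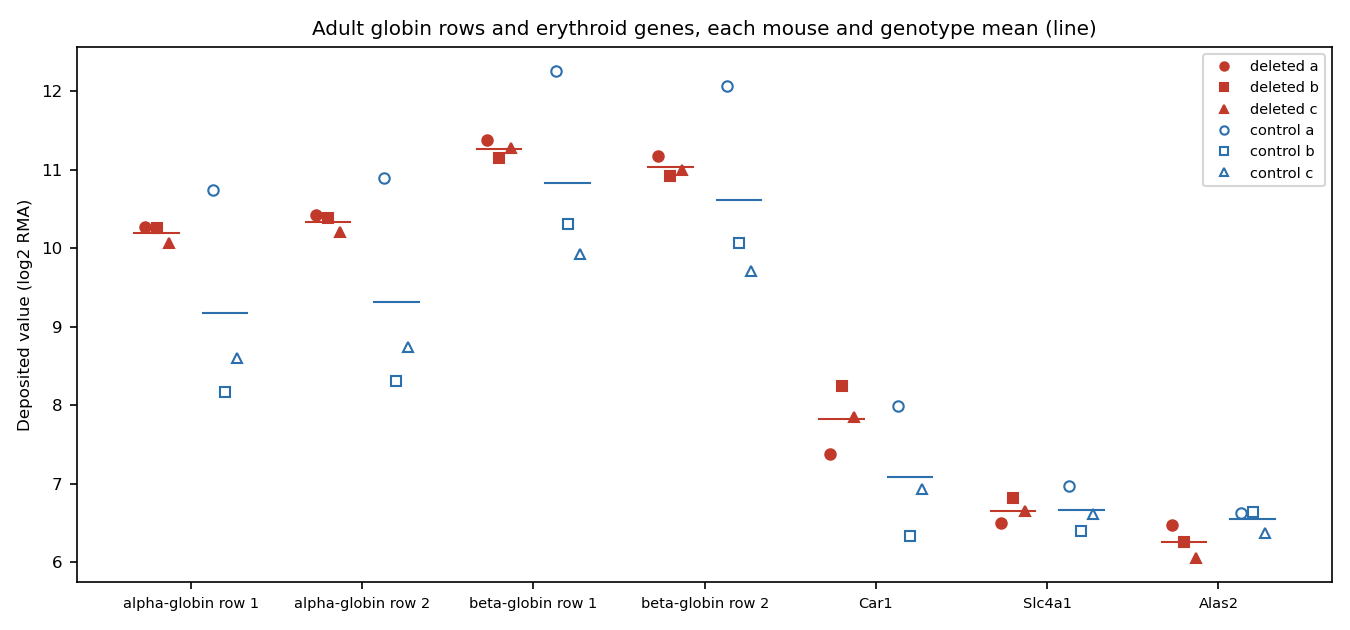
Deposited log2 values of each mouse for the 4 adult globin rows and for Car1, Slc4a1 and Alas2, deleted mice in red at the left of each pair and controls in blue, with the genotype mean as a line. In the globin rows control a (open circle) lies above all other mice and controls b and c below them, and the vertical axis does not start at 0.

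Further genes of these lineages were looked up by function. Of 24 measured regulators of megakaryocytes and red cells beyond the members, 0 passed, against 1.43% of all genes. At that share a list this short may well hold no call. Lmo2, an adaptor of the GATA1 and TAL1 complex, had the smallest p (-0.54 ± 0.15 SE, limma adjusted p = 0.106), followed by E2f2, a cell cycle regulator (0.36 ± 0.11 SE, adjusted p = 0.159). Of the 24 regulators 18 were bright, among them Gfi1b, Runx1 and Myb, and none was dim, against 20.5% bright and 44.1% dim of all genes. The list was written with earlier results of these data known. Gata2 and Tal1 were intermediate, at 7.48 to 7.90 and 7.42 to 7.79 over the 6 mice.

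Of 31 other platelet genes 2 fell and none rose, against 0.732% of all genes that fell. Trpc6, a calcium channel, read 5.61, 5.76 and 5.92 in deleted mice, against 6.79, 6.63 and 6.61 in control mice (-0.91 ± 0.12 SE, limma adjusted p = 0.00912). Tbxas1, which makes thromboxane and is also expressed in monocytes, read 6.80, 6.54 and 6.20 in deleted mice, against 7.54, 7.66 and 7.09 in control mice (-0.92 ± 0.18 SE, adjusted p = 0.0469). The median over these 31 genes was 0.08. Of 26 genes of haem synthesis and iron 0 passed, against 1.43% of all genes. Glrx5, needed for iron-sulphur clusters, stood at 0.47 ± 0.11 (SE, adjusted p = 0.0815) and Ppox, a late enzyme of haem synthesis, at -0.43 ± 0.15 (SE, adjusted p = 0.204). Of 18 other red cell genes 0 passed, against the same 1.43%, with Cldn13 at 0.47 ± 0.14 (SE, adjusted p = 0.151) and Ackr1 at 0.27 ± 0.11 (SE, adjusted p = 0.254). Lists this short may well hold no call at that share.

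Some markers of other cell types differed between the genotypes in the same samples, and their part in the values above was not tested. Of 6 markers of mast cells and basophils, Cpa3 and Gzmb rose. Ms4a2, Mcpt8, Fcer1a and Hdc were not called (log2 differences 0.53, 0.09, -0.07 and -0.02), with Ms4a2 above controls in all deleted mice. The unlogged signal summed over all 6 was 2855 to 3994 in deleted mice, against 511 to 540 in control mice. Its largest term is Cpa3, at 11.62, 11.28 and 11.25 in deleted mice, against 7.83, 7.91 and 8.01 in control mice. Of 8 neutrophil markers, S100a8, S100a9 and Camp fell. S100a9 read 6.08, 5.86 and 5.50 in deleted mice, against 9.45, 8.99 and 9.10 in control mice. The sum over all 8 was 2562 to 3997 in deleted mice, against 3154 to 4058 in control mice, and it overlapped. Mpo, whose values of 10.86 to 11.85 are the largest term of that sum, did not pass (log2 difference 0.25, limma adjusted p = 0.616). Cd68 fell among 8 monocyte markers (sum over the 8, 551 to 584 in deleted mice, against 633 to 670 in control mice). Itgam, of the same list, lay above controls in all deleted mice but was not called (log2 difference 0.41, limma adjusted p = 0.146). Pdgfrb rose among 7 endothelial and stromal markers (sum over the 7, 916 to 1018 in deleted mice, against 689 to 743 in control mice). Pecam1, the largest term of that sum, lay above controls in all deleted mice but was not called (log2 difference 0.51, limma adjusted p = 0.103). Cdh5 lay above them too, with a log2 difference of 0.10 (adjusted p = 0.687), and Kdr, Col1a1, Lepr and Cxcl12 overlapped. None of 5 B cell markers and none of 6 T and NK cell markers passed, against 1.43% of all genes. Of 5 measured genes listed for LSK cells, Kit and Flt3 fell and Cd48 rose. Flt3 and Cd48 are not among the sort's markers named above. Of 5 genes of CD150 and stem cells Hlf, Mecom and Procr fell, and Esam and Slamf1 were not called. Slamf1, dim on all arrays, read 3.94, 3.94 and 4.86 in deleted mice, against 3.48, 3.75 and 3.93 in control mice. All deleted mice thus lay above all controls for Slamf1 (log2 difference 0.53, limma adjusted p = 0.31).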

How the data were processed

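Per the submitters' processing notes, the authors deposited log2 values made with RMA in Affymetrix Expression Console 1.1.2. RMA corrects background, normalizes between arrays and summarises each probe set. The sources used here do not give its settings, and no detection calls were used. Values ran from 2.17 to 14.6. The 35556 rows were named through the platform's annotation. Of these, 21789 name 1 gene, 1621 several and 12146 are unnamed here, and the brightest row of a gene was kept (19938 genes).

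The test between genotypes was limma's moderated one (version 3.58.1, R 4.3.3), and p-values were adjusted over all genes by Benjamini-Hochberg, with a threshold of 0.05. The number of arrays limits the precision. Replicates are separate mice. In 20 simulations of this comparison over 19938 genes, a small share of genes was given a known change. Of these the test called 14.6% at a true log2 change of 0.5, 92.1% at 1 and 99.8% at 2. Such rates depend on the share of genes changed, so they need not hold for the real data. Named in full were members with an unadjusted p under 0.05, bright on all arrays or called under an alternative, and up to 3 called genes per list, or else the 2 with the smallest p. Members and lists were chosen with earlier results of these data known. Alternatives are given at the end. Python 3.11.15 and matplotlib 3.10.9 made the counts and figures.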

Additional observations from a re-analysis of the deposited data

How the results depend on the processing

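The count of 0 members called became 1 (F2r) among genes at or above the 25th percentile or the median of mean intensity, after quantile normalization and after median centring. It stayed at 0 with an intensity trend, a robust prior, cyclic loess, the mean of a gene's rows, every row tested, and without any single array. With the letters of the titles as a replicate block 0 members were called too, and 274 genes in all against 286. Deviations of arrays with the same letter correlated at -0.01, -0.04 and 0.06, against -0.10 to 0.11 for different letters. These values show no pairing by letter, but the titles do not say what the letters stand for. Non-overlapping members numbered 14 to 19 without single arrays, with 19 without control a (31.2% of all genes, against 21.2% with all mice). The megakaryocyte median was 0.13 after quantile normalization and 0.12 after median centring, which also raised the median of all genes to 0.05 and 0.08, and -0.012 to 0.12 without single arrays. The erythroid median was -0.045 to 0.050 without single arrays, and -0.036 without Car1, a setting chosen after seeing the data. Nfe2 turned to 0.027 under median centring. Without single arrays Nfe2 lay between -0.15 and 0.054 and Apoe between -0.24 and 0.12. Genes called higher made up 48.9% of all calls, against 61.6% after quantile normalization and 65.8% after median centring. The 286 calls became 438 under the median filter, 8 with every row tested (13 of 35556 rows) and 53 to 250 without single arrays. With every deposited row tested, the Cebpa call was lost, at -1.71 and an adjusted p of 0.0513. The causes of these shifts were not tested. Members near the array median may sit close to background, which limits small folds there.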
